A study of Homo sapiens with 12 samples.

Results

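The E2F transcription factors and the pocket proteins were followed at the RNA level in 3 lymphoma cell lines. The set holds 10 genes: 7 E2F genes (E2F1, E2F2, E2F3, E2F4, E2F5, E2F7 and E2F8) and the 3 pocket protein genes (RB1, RBL1 and RBL2). They were taken by gene symbol from 63129 genes measured; where a symbol had more than 1 row, the row on a primary chromosome with the highest mean was used, which mattered only for RBL1. KARPAS-422, Pfeiffer and RL are established human cell lines of diffuse large B cell lymphoma (DLBCL) of the germinal centre type, and the catalytic SET domain of EZH2 is mutated to a more active form in all 3. EZH2 is the histone H3 lysine 27 methyltransferase of the PRC2 complex. KARPAS-422 was grown with the EZH2 inhibitor CPI-169 (n = 3 libraries) or DMSO (n = 3), Pfeiffer with the EZH2 inhibitor GSK343 (n = 2) or DMSO (n = 2), and RL with DMSO alone (n = 2). Compounds were used at 1.5 µM and the vehicle at 0.1% DMSO, both added at seeding, and RNA was taken after 4 days. The labels describe KARPAS-422 and Pfeiffer as phenotypically responsive to EZH2 inhibition and RL as not responsive. Each line received at most 1 compound, so line and compound cannot be told apart where the treated lines are compared.

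E2F factors bind the promoters of genes for DNA replication and the cell cycle, in most cases together with a DP partner. E2F1, E2F2 and E2F3 are the activating members, E2F4 and E2F5 act mainly as repressors together with pocket proteins, and E2F7 and E2F8 are atypical repressors that bind without a DP partner and are themselves E2F targets. The pocket proteins pRB (RB1), p107 (RBL1) and p130 (RBL2) hold E2F factors in check until cyclin-dependent kinases phosphorylate them; p130 is characteristic of quiescent cells and p107 of cycling cells. In germinal centre B cells the pathway drives very rapid division.

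Several E2F and pocket protein genes are textbook E2F targets, so the stretches of their promoters that hold E2F motifs are shown here. The 4 sequence forms TTTCCCGC, TTTGGCGC, TTTCGCGC and TTTGCCGC were searched on both strands in 300-base windows, from 250 bases before to 50 after the annotated start (RefSeq, GRCh38.p14). Matches, in capitals, were found for 4 of the 8 members with a window; each line gives the 80 bases before the start, 5′ to 3′ on the gene's strand, and no match overlaps another.
E2F1 (chr20:33686386-33686465, minus strand): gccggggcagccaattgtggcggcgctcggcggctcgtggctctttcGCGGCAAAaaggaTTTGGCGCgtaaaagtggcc
E2F2 (chr1:23531234-23531313, minus strand): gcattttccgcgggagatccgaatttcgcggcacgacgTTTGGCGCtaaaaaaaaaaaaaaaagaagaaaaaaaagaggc
E2F3 (chr6:20401799-20401878, plus strand): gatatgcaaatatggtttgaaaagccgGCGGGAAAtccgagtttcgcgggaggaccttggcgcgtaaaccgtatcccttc
RBL1 (chr20:37095998-37096077, minus strand): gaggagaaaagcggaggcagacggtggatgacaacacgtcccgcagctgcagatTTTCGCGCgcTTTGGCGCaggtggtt
E2F1 and RBL1 had 2 matches each, E2F2 and E2F3 had 1 each, and the E2F3 match lay in 1 of its 2 windows. The windows of E2F4, E2F7, RB1 and RBL2 held none of these letters, and E2F5 and E2F8 were not matched to a window. The single RB1 window has its annotated start at chr13:48476450 (GRCh38.p14). It was not matched to the 5′ end of the RB1 locus used here. It therefore cannot be taken as the main RB1 promoter, and its lack of a match says nothing about that promoter. A match was held by 3.31% of all 35116 windows. Counted by gene, as for the members, any window held a match for 1090 of 27305 genes (3.99%). The same count was 17 of 31 genes (54.8%) of a list of G1/S E2F target genes and 2 of 27 genes (7.41%) of a list of G2/M genes. A match is a description of these letters and not evidence of binding.

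Levels are given as FPKM, fragments per kilobase and per library total, so that levels can be compared between genes. Between 14018 and 16391 genes reached 1 FPKM per library. The files hold no read counts, so the absolute depth is unknown. All 6 B cell markers and all 3 germinal centre markers examined were at 1 FPKM or more in every library, and all 4 myeloid markers were under 1 FPKM throughout. In Pfeiffer, the mean of CD8A was 411 FPKM in DMSO libraries and 346 in GSK343 libraries and that of EPCAM 134.6 and 58.2, while CD3D, CD3E, CD3G and NKG7 were under 1 FPKM in every Pfeiffer library. The sum of the 5 T and NK cell markers was 411 to 413 FPKM in the Pfeiffer DMSO pair and 298 to 396 in the GSK343 pair, and that of the 4 epithelial, stromal and endothelial markers found (of 5) was 135 to 136 and 51.9 to 70.9. In KARPAS-422 the T and NK sum was 35.5 to 37.2 with DMSO and 53.2 to 59.95 with CPI-169, with CD3G at a mean of 34.7 and 51.6 of it. The B cell sum was 1841 to 2033 and 1479 to 1610 FPKM in KARPAS-422 and 2599 to 2659 and 2066 to 2509 in Pfeiffer. The germinal centre sum was 233 to 245 and 268 to 277 in KARPAS-422, and 117 to 120.1 and 104 to 286 in Pfeiffer, where BCL6 stood at 92.3 and 268 FPKM in the GSK343 libraries. These sums moved with treatment, and their part in the results was not tested. The GSK343 libraries differed more from each other (Pearson r across genes 0.97) than any other pair of replicates (0.993 to 0.9972). Nothing in the labels ties replicates to different cultures; the p-values therefore reflect the spread between libraries, which may be technical. Strand handling is not stated, so reads of overlapping antisense genes cannot be told apart from those of a member, and in bulk RNA fewer cells of a kind and less RNA per cell cannot be told apart.

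At baseline E2F4 and E2F5 were the most abundant of the 7 E2F genes in every line. In KARPAS-422 with DMSO the order was E2F4 (92.6 ± 3.94 FPKM, SD, n = 3), RB1 (74.3 ± 2.24), E2F5 (47.7 ± 7.40), E2F1 (31.1 ± 0.683), RBL2 (24.4 ± 0.960), E2F3 (21.5 ± 0.472), RBL1 (8.81 ± 0.799), E2F8 (5.23 ± 0.546), E2F2 (3.07 ± 0.369) and E2F7 (0.121 ± 0.0313), and no neighbours in that order overlapped between libraries. In Pfeiffer with DMSO E2F5 came first (67.1 ± 2.33, n = 2), followed by E2F4 (49.2 ± 5.23) and RB1 (44.4 ± 1.58), which overlapped each other. RBL2 (30.0 ± 0.738), E2F1 (17.3 ± 0.249), the overlapping pair E2F8 (6.96 ± 0.166) and E2F3 (6.57 ± 0.431), RBL1 (4.28 ± 0.234), E2F2 (3.73 ± 0.475) and E2F7 (0.626 ± 0.0764) followed. In RL E2F5 also led (109.9 ± 0.851, n = 2), ahead of E2F4 (59.7 ± 2.95), and E2F1 (33.3 ± 1.51) and E2F2 (32.9 ± 1.03) stood at overlapping levels above RB1 (30.2 ± 0.419). The remaining RL levels were RBL2 at 16.1 ± 1.06, E2F3 at 14.2 ± 0.169, E2F8 at 11.98 ± 0.0398, RBL1 at 8.97 ± 0.0894 and E2F7 at 0.644 ± 0.0947 FPKM.

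**Figure D1:**
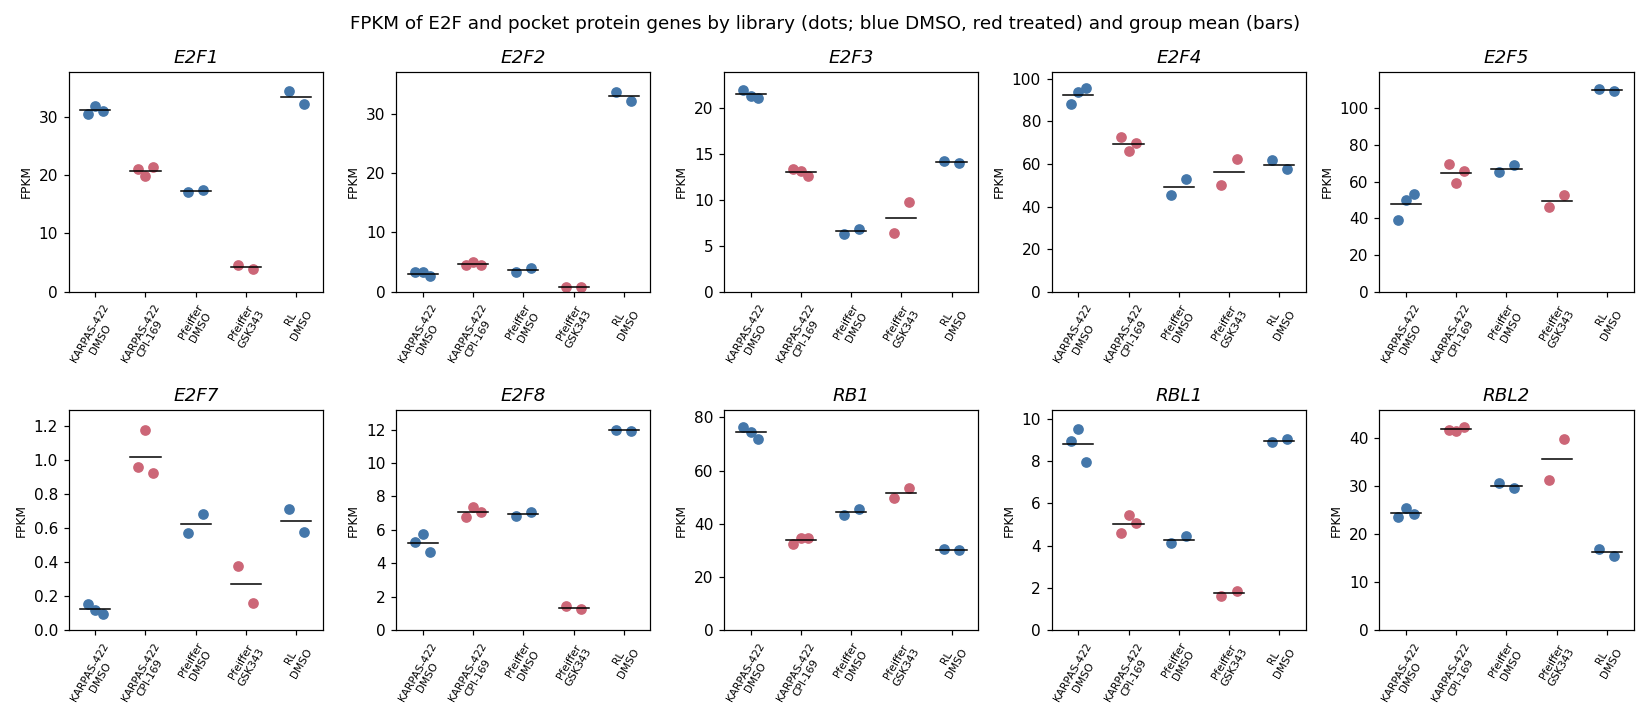
FPKM (linear axes from 0, different in each panel) of the 10 genes; each dot is a library, blue for DMSO and red for CPI-169 or GSK343, and black bars are group means. E2F1, E2F2, E2F8 and RBL1 are lowest in the GSK343 libraries, RB1 is lower in all 3 CPI-169 libraries than in the 3 KARPAS-422 DMSO libraries, and E2F2 is high in RL alone.

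Of the 10 genes, 9 passed the filter of 1 FPKM in at least 2 libraries and were tested with limma on log2(FPKM + 1); every log2 fold change below is on that scale (low genes are compressed by it), and adjusted p-values are Benjamini-Hochberg values over all 18731 genes tested. With CPI-169 in KARPAS-422, 4 members rose (E2F2, E2F5, E2F8 and RBL2) and 5 fell (E2F1, E2F3, E2F4, RB1 and RBL1), where 54.2% of all genes tested passed (26.9% higher, 27.3% lower). The libraries of treated and DMSO cells did not overlap for any of those 9, as for 65% of all genes. With GSK343 in Pfeiffer, 5 members fell (E2F1, E2F2, E2F5, E2F8 and RBL1) and 0 rose, where 29.5% of all genes passed (12% higher, 17.5% lower). The groups did not overlap for 7 of the 9 (all but E2F3 and E2F4), as for 57.8% of all genes. The effects differed between the treated lines for 8 of the 9 members, 3 of them higher and 5 lower in Pfeiffer, against 42.6% of all genes (18.8% higher, 23.8% lower). E2F1 and RBL1 fell in both, and E2F2, E2F5 and E2F8 rose in KARPAS-422 and fell in Pfeiffer. The Pfeiffer calls depended on the scaling. With median scaling or quantile normalization, the GSK343 values of E2F4, RB1 and RBL2 passed as higher and that of E2F5 did not pass. The Pfeiffer count rests on few libraries: it was 8 (4 higher, 4 lower) without GSK343 replicate 1, 4 when any of Pfeiffer DMSO replicate 1 or 2, CPI-169 replicate 3 or RL replicate 1 or 2 was left out, and 0 when Pfeiffer was fitted on its own 4 libraries, where 5 members had an unadjusted limma p under 0.05 and the lowest adjusted p of any gene was 0.0516.

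**Figure D2:**
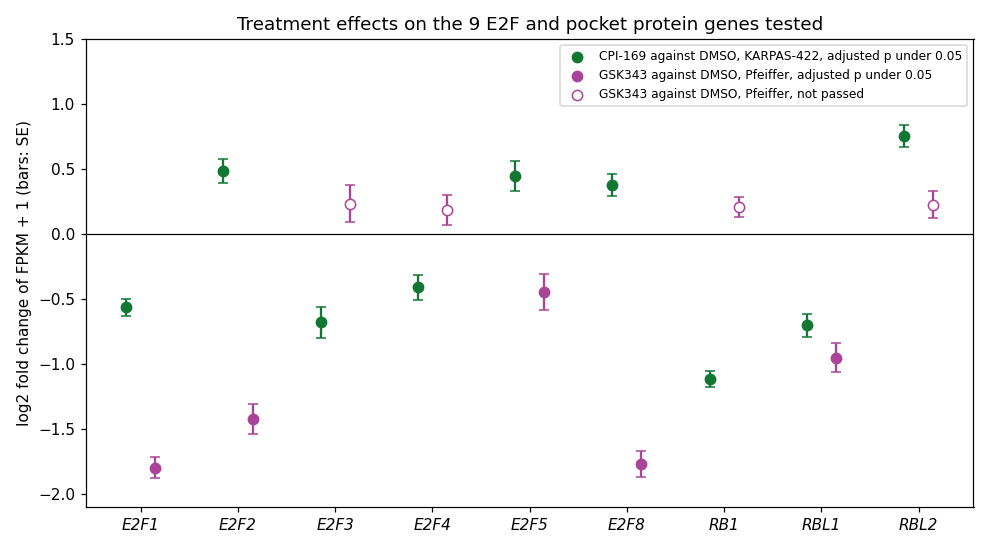
Log2 fold changes of FPKM + 1 with their standard errors (bars) for the 9 genes tested; green is CPI-169 in KARPAS-422, purple is GSK343 in Pfeiffer, filled points have an adjusted p under 0.05 and open points do not. E2F2, E2F5 and E2F8 lie above 0 in KARPAS-422 and below 0 in Pfeiffer, while RB1 lies at -1.11 and 0.21.

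Among the activating factors, E2F1, the member most closely tied to S phase entry and also to apoptosis, is at hg19 chr20:32263488-32274210. Its KARPAS-422 levels were 30.5, 31.9 and 31.0 FPKM with DMSO and 21.1, 19.9 and 21.3 with CPI-169. In Pfeiffer they were 17.1 and 17.5 with DMSO and 4.61 and 3.98 with GSK343. Every treated library lay below every DMSO library of its line. The log2 fold change was -0.56 (SE 0.0668, adjusted p = 4.30e-05) with CPI-169 and -1.79 (SE 0.0818, adjusted p = 6.96e-07) with GSK343. On the FPKM scale the GSK343 mean was 4.03 times lower and the CPI-169 mean 1.50 times lower than DMSO, and the difference of the log2 effects was -1.23 (adjusted p = 1.66e-05).

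E2F2 (chr1:23832921-23857712), an activating factor with roles in lymphocyte proliferation, was a low gene in both treated lines. It stood at 3.29, 3.28 and 2.64 FPKM with DMSO and 4.54, 5.01 and 4.52 with CPI-169 in KARPAS-422. In Pfeiffer it was at 3.40 and 4.07 FPKM with DMSO and at 0.755 and 0.770 with GSK343. The groups did not overlap in either line, and they moved in opposite directions. E2F2 rose by 0.49 on the log2 scale with CPI-169 (SE 0.0918, adjusted p = 0.00106) and fell by 1.42 with GSK343 (SE 0.112, adjusted p = 1.35e-05), a difference of -1.91 (adjusted p = 8.02e-06).

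E2F3 (chr6:20402397-20493941) encodes both a full-length activator and a shorter form from an internal start, which gene-level FPKM does not separate. Its levels were 22.01, 21.3 and 21.1 FPKM with DMSO and 13.4, 13.1 and 12.6 with CPI-169. In Pfeiffer they were 6.27 and 6.88 with DMSO and 6.35 and 9.77 with GSK343. The KARPAS-422 groups were apart, and the Pfeiffer groups overlapped. The fold change was -0.68 with CPI-169 (SE 0.116, adjusted p = 0.000554) and 0.23 with GSK343, which did not pass (adjusted p = 0.247), and the effects differed by 0.91 (adjusted p = 0.00277). The Pfeiffer value turned on 1 library: it was 0.51 (adjusted p = 0.00057) without GSK343 replicate 1 and -0.04 (adjusted p = 0.727) without replicate 2.

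E2F4 (chr16:67226071-67232821), the usual E2F of pocket protein repressor complexes, was at 88.2, 93.7 and 95.8 FPKM with DMSO and 72.5, 66.1 and 69.7 with CPI-169. Its Pfeiffer levels were 45.5 and 52.9 with DMSO and 49.96 and 62.2 with GSK343, where the groups overlapped. E2F4 fell by 0.41 on the log2 scale with CPI-169 (SE 0.0939, adjusted p = 0.00354), and the 0.18 with GSK343 did not pass (SE 0.115, adjusted p = 0.265). The effects differed by 0.59 (adjusted p = 0.00901). Without GSK343 replicate 1, and under median scaling or quantile normalization of the libraries, the Pfeiffer value passed as higher (0.34, 0.34 and 0.35; adjusted p = 0.0245, 0.0193 and 0.0307).

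E2F5 (chr8:86089459-86129387), which like E2F4 lacks a cyclin A binding region and pairs with p130, went the other way. It was at 39.3, 50.2 and 53.4 FPKM with DMSO and at 69.4, 59.2 and 66.0 with CPI-169. In Pfeiffer it was at 65.5 and 68.8 FPKM with DMSO and 45.9 and 52.5 with GSK343. No groups overlapped within a line. E2F5 rose by 0.45 in KARPAS-422 (SE 0.112, adjusted p = 0.00622) and fell by 0.44 in Pfeiffer (SE 0.138, adjusted p = 0.0342), with a difference of -0.89 (adjusted p = 0.00263). The Pfeiffer call is a weak one: it was lost in 11 of 19 alternative settings (adjusted p 0.00796 to 0.193), among them leaving out Pfeiffer DMSO replicate 1 (adjusted p = 0.103) or 2 (0.141), GSK343 replicate 1 (0.103), CPI-169 replicate 3 (0.0521), RL replicate 1 (0.0540) or RL replicate 2 (0.0540), and median scaling (0.0719).

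The atypical repressors are S phase E2F targets. E2F8 (chr11:19245609-19263167) was at 5.25, 5.76 and 4.67 FPKM with DMSO and 6.78, 7.39 and 7.06 with CPI-169. In Pfeiffer it was at 6.85 and 7.08 FPKM with DMSO and 1.43 and 1.25 with GSK343. The groups were apart in both lines, upward in KARPAS-422 and downward in Pfeiffer. It rose by 0.38 (SE 0.0823, adjusted p = 0.0026) with CPI-169 and fell by 1.77 (SE 0.101, adjusted p = 2.13e-06) with GSK343, and the difference of -2.15 (adjusted p = 1.99e-06) was the largest in size among the 9 members tested. The GSK343 mean of E2F8 was 5.20 times lower than DMSO.

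E2F7 (chr12:77415026-77459360) reached 1 FPKM in 1 of 12 libraries and was not among the genes tested. It stood at 0.155, 0.117 and 0.0924 FPKM with DMSO and at 0.960, 1.18 and 0.922 with CPI-169 in KARPAS-422. In Pfeiffer it was at 0.572 and 0.681 FPKM with DMSO, at 0.376 and 0.160 with GSK343, and in RL at 0.711 and 0.577. The treated groups lay apart from DMSO, above it in KARPAS-422 and below it in Pfeiffer. Fitted with no filter on low values (41378 genes), its log2 fold change was 0.85 with CPI-169 (adjusted p = 9.17e-05) and -0.36 with GSK343 (adjusted p = 0.0440).

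Among the pocket proteins, RB1 (chr13:48877886-49056122), the tumour suppressor that binds the activating E2Fs, had the largest change with CPI-169 among the 9 genes tested. Its levels were 76.5, 74.6 and 72.0 FPKM with DMSO and 32.3, 34.4 and 34.7 with CPI-169. In Pfeiffer they were 43.3 and 45.5 with DMSO and 49.8 and 53.4 with GSK343. RB1 fell by 1.11 on the log2 scale in KARPAS-422 (SE 0.0622, adjusted p = 2.53e-07), a mean 2.20 times lower. In Pfeiffer both GSK343 libraries lay above both DMSO libraries, but the value of 0.21 did not pass (SE 0.0762, adjusted p = 0.0604), and the effects differed by 1.33 (adjusted p = 6.97e-06). The Pfeiffer value passed as higher without GSK343 replicate 1 (0.26, adjusted p = 0.0158), with no filter on low values (0.21, adjusted p = 0.0406), with median scaling (0.37, adjusted p = 0.00611) and with quantile normalization (0.35, adjusted p = 0.0290).

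RBL1 (chr20:35624751-35724398), which encodes the p107 of cycling cells and is itself an E2F target, fell in both lines. It was at 8.96, 9.52 and 7.94 FPKM with DMSO and 4.57, 5.44 and 5.08 with CPI-169. In Pfeiffer it was at 4.12 and 4.45 FPKM with DMSO and 1.62 and 1.86 with GSK343. Every treated library was below every DMSO library of its line. The log2 fold changes were -0.70 (SE 0.0890, adjusted p = 6.89e-05) and -0.95 (SE 0.109, adjusted p = 0.000137). Their difference of -0.25 did not pass (95% interval -0.56 to 0.063, adjusted p = 0.179), although it did after quantile normalization (-0.40, adjusted p = 0.0465), so the effects are not shown to be alike.

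RBL2 (chr16:53467888-53525561), encoding the p130 of quiescent cells, rose in KARPAS-422. Its levels were 23.5, 25.4 and 24.2 FPKM with DMSO and 41.5, 41.4 and 42.2 with CPI-169. In Pfeiffer they were 30.5 and 29.5 with DMSO and 31.3 and 39.6 with GSK343. No groups overlapped, but the 2 GSK343 libraries were far apart from each other. RBL2 rose by 0.75 with CPI-169 (SE 0.0849, adjusted p = 3.04e-05), and the 0.23 with GSK343 did not pass (SE 0.104, adjusted p = 0.127); the effects differed by -0.52 (adjusted p = 0.00993). Without GSK343 replicate 1 the Pfeiffer value was 0.39 (adjusted p = 0.00246), and median scaling and quantile normalization also made it pass as higher (0.39 and 0.36; adjusted p = 0.00844 and 0.0169).

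The changes in opposite directions altered the make-up of the pocket protein transcripts in KARPAS-422. RB1 made up 68.1% to 70.2% of the summed FPKM of the 3 pocket protein genes with DMSO and 41.2% to 42.4% with CPI-169, while RBL2 went from 21.6%-23.3% to 50.9%-52.9%. The ratio of RBL2 to RB1 was 0.308 to 0.341 in the DMSO libraries and 1.202 to 1.28 in the CPI-169 libraries, the only libraries of the 12 in which RBL2 was above RB1. In Pfeiffer the RB1 share was 55.6% to 57.3% with DMSO and 56.3% to 60.2% with GSK343, overlapping ranges, and the RBL1 share was 5.28% to 5.60% and 1.96% in each GSK343 library. The summed pocket FPKM was 104 to 109.5 with DMSO and 78.4 to 81.9 with CPI-169, against 77.9 to 79.5 and 82.7 to 94.9 in Pfeiffer. RL held the lowest pocket sum, 54.4 to 56.3 FPKM, with an RBL1 share of 15.8% to 16.6%. These ratios come from a few libraries and no test was run on them.

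**Figure D3:**
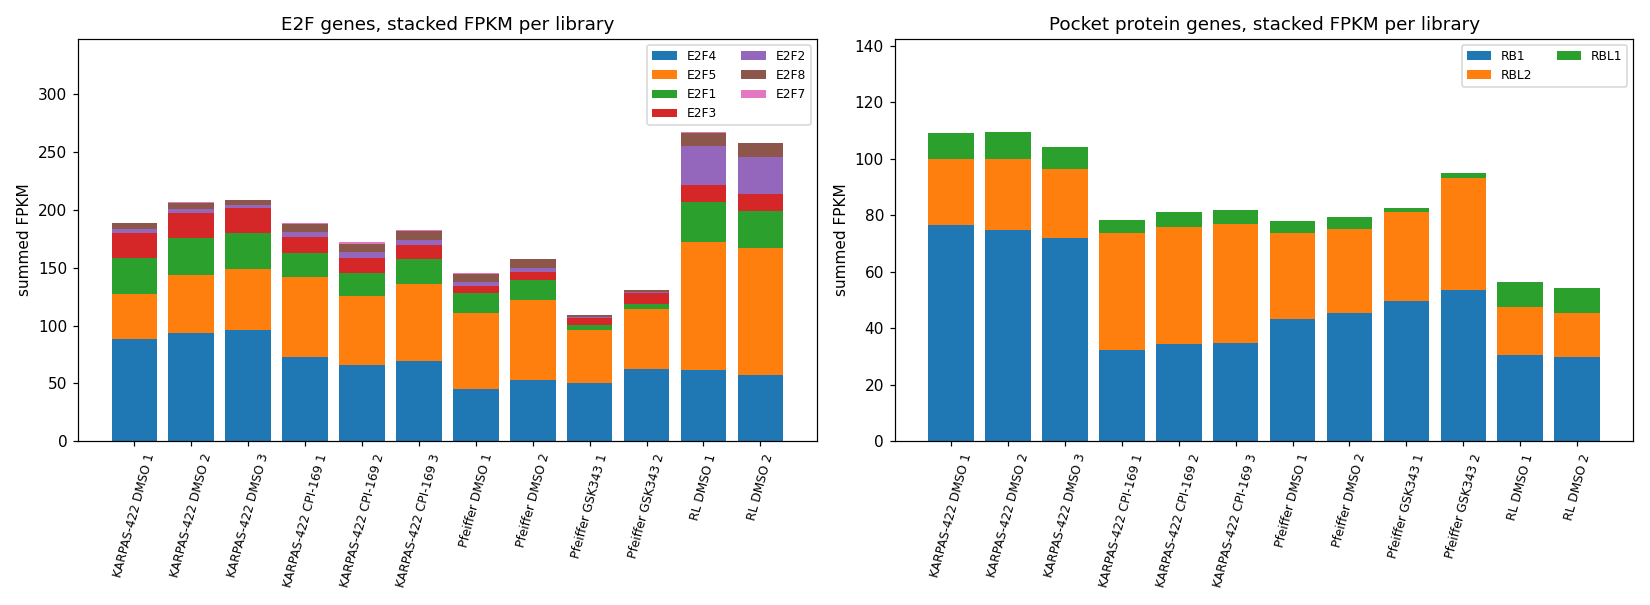
Stacked FPKM of the 7 E2F genes (left) and the 3 pocket protein genes (right) in each of the 12 libraries, named by line, treatment and replicate number. RBL2 (orange, right) takes a larger part than RB1 (blue) in the 3 CPI-169 libraries only, and E2F2 (purple, left) is a large part of the sum in the 2 RL libraries only.

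The balance of activating to repressor-class E2F transcripts was lower in the treated libraries of both lines. The sum of E2F1, E2F2 and E2F3 divided by that of E2F4 and E2F5 was 0.367 to 0.438 with DMSO and 0.275 to 0.303 with CPI-169 in KARPAS-422. In Pfeiffer it was 0.234 to 0.242 with DMSO and 0.122 to 0.127 with GSK343, and RL stood highest at 0.470 to 0.477. The ranges did not overlap within either line. Relative to RB1, E2F1 moved in opposite directions: the ratio of E2F1 to RB1 was 0.399 to 0.431 and 0.578 to 0.652 in KARPAS-422, and 0.384 to 0.396 and 0.0746 to 0.0925 in Pfeiffer.

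The baseline lines were compared with DMSO libraries only; these libraries also serve as controls of the treatments and are shared between the baseline comparisons, so the comparisons are not independent of each other. Of the 9 members tested, 3 were higher and 5 lower in Pfeiffer than in KARPAS-422, where 83% of all genes passed (43.2% higher, 39.8% lower); 3 were higher and 4 lower in RL than in KARPAS-422 (66.8% of all genes, 33.6% higher and 33.2% lower); and 7 were higher and 2 lower in RL than in Pfeiffer (74.3%, 35.6% higher and 38.7% lower). E2F2 had the largest RL differences of the 9. At 33.6 and 32.2 FPKM it was 10.7 times the KARPAS-422 mean and 8.81 times the Pfeiffer mean (log2 differences of 3.06 and 2.84, adjusted p = 1.04e-09 and 2.93e-09). E2F8, at 12.01 and 11.95 FPKM in RL, was 2.29 and 1.72 times those means (adjusted p = 1.63e-06 and 7.81e-05). E2F5, at 110.5 and 109.3 FPKM, was 2.31 and 1.64 times them (adjusted p = 7.53e-06 and 0.000787). RB1, at 30.5 and 29.9 FPKM, was 2.46 and 1.47 times lower in RL than in KARPAS-422 and Pfeiffer (adjusted p = 4.46e-08 and 7.08e-05), and RBL2, at 16.9 and 15.4 FPKM, was 1.51 and 1.86 times lower (adjusted p = 0.000289 and 2.22e-05). E2F1 and RBL1 did not differ past the threshold between RL and KARPAS-422 (log2 differences of 0.093 and 0.026, adjusted p = 0.301 and 0.855; 95% intervals -0.072 to 0.26 and -0.19 to 0.25), and both were higher in RL than in Pfeiffer (0.90 and 0.92; adjusted p = 2.08e-06 and 1.86e-05). The RL value of E2F3, 14.3 and 14.0 FPKM, lay between the other lines, and E2F4 was only 0.28 above Pfeiffer (adjusted p = 0.0471), a call lost in 10 of 17 alternative settings, among them leaving out KARPAS-422 DMSO replicate 2 or 3, any CPI-169 library, Pfeiffer DMSO replicate 1 or either RL library (adjusted p 0.0565 to 0.288).

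Of the DNA-binding partners and E2F6, TFDP1, the main DP partner, rose by 0.47 with CPI-169 (57.7 ± 3.80 to 80.2 ± 3.11 FPKM, adjusted p = 0.00147) and fell by 0.55 with GSK343 (40.6 ± 2.40 to 27.7 ± 4.86, adjusted p = 0.00531). E2F6, a pocket-independent repressor, fell in KARPAS-422 (-0.49, adjusted p = 0.00355) and did not pass in Pfeiffer (-0.25, adjusted p = 0.201). TFDP2 passed in neither treatment (-0.27 and 0.12), although the value with CPI-169 passed without either GSK343 library (adjusted p = 0.0207 and 0.0208), and in RL it was at 4.23 FPKM, against 24.3 in KARPAS-422 and 40.5 in Pfeiffer with DMSO.

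The MuvB complex joins p107 or p130 and E2F4 or E2F5 into the DREAM repressor of resting cells, and joins B-MYB (MYBL2) and FOXM1 for mitotic gene activation. Of the 7 genes listed, 1 rose and 3 fell with CPI-169, and 0 rose and 5 fell with GSK343, where 54.2% and 29.5% of all genes passed. RBBP4, a histone-binding subunit, rose from 43.7 to 78.9 FPKM with CPI-169 (0.84, adjusted p = 1.79e-06) and fell by 0.25 with GSK343 (adjusted p = 0.0311), a call lost in 9 of 19 settings, among them leaving out either Pfeiffer DMSO library, CPI-169 replicate 1 or either RL library (adjusted p 0.0517 to 0.106). LIN9 and LIN54, core subunits, fell in both lines (-0.70 and -1.02 in KARPAS-422, -1.02 and -0.62 in Pfeiffer), and LIN52 fell in KARPAS-422 (-0.77, adjusted p = 3.03e-05). With GSK343 LIN52 was at -0.27, which did not pass, and at -0.41 without Pfeiffer DMSO replicate 2, which did (adjusted p = 0.0303); the difference of 0.50 (adjusted p = 0.0139) did not pass without that library (0.36, adjusted p = 0.0611). MYBL2 fell in Pfeiffer (79.9 to 34.5 FPKM, -1.20, adjusted p = 0.000127), as did FOXM1 (12.2 to 3.62 FPKM, -1.50, adjusted p = 1.01e-05; 0.0556 with the line fitted alone); with CPI-169 they were at -0.032 and -0.22 and passed in neither case, although FOXM1 passed without KARPAS-422 DMSO replicate 3, CPI-169 replicate 2 or either Pfeiffer DMSO library (adjusted p 0.0469 to 0.0490). LIN37 passed in neither line (-0.26 and -0.16), although the first value passed without either GSK343 library (adjusted p = 0.0312 and 0.0309) and the second was -0.38 without GSK343 replicate 1 (adjusted p = 0.0418). In RL MYBL2 stood at 120.5 and FOXM1 at 67.6 FPKM.

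The G1 cyclins and kinases that phosphorylate the pocket proteins were tested for 7 of 8 listed: 1 rose and 5 fell with GSK343, where 29.5% of all genes passed, and 2 rose and 2 fell with CPI-169, where 54.2% did. CDK2, the partner of cyclin E, went from 39.8 to 16.4 FPKM with GSK343 (-1.23, adjusted p = 8.47e-06) and from 21.96 to 27.6 with CPI-169 (0.32, adjusted p = 0.00355). Cyclin E genes followed the same directions with GSK343, CCNE1 at -0.54 (adjusted p = 0.0174) and CCNE2 at -0.59 (adjusted p = 0.00334); with CPI-169 CCNE1 rose by 0.34 (adjusted p = 0.0287) and CCNE2 was at 0.10. The CCNE1 call with GSK343 was lost in 4 of 19 settings, among them without Pfeiffer DMSO replicate 1 or GSK343 replicate 2 (adjusted p = 0.127 and 0.0787), and that with CPI-169 in 6 of 19, among them without KARPAS-422 DMSO replicate 1 or CPI-169 replicate 1 or 3 (adjusted p = 0.107, 0.100 and 0.0858). CDK4, the cyclin D kinase, fell by 0.27 with CPI-169 (adjusted p = 0.0438) and by 0.55 with GSK343 (adjusted p = 0.00867; 0.0889 with the line fitted alone). The first call was lost in 12 of 19 settings, among them leaving out KARPAS-422 DMSO replicate 2 or 3, CPI-169 replicate 2 or 3, or any Pfeiffer DMSO or RL library (adjusted p 0.0596 to 0.172). CDK6 fell in KARPAS-422 from 14.6 to 7.02 FPKM (-0.95, adjusted p = 0.00831) and did not pass in Pfeiffer (0.75, adjusted p = 0.0962), where the GSK343 libraries were at 12.6 and 33.3 FPKM; it was 1.41 (adjusted p = 2.19e-05) without GSK343 replicate 1, and passed with median scaling (0.91, adjusted p = 0.0454). Of the D cyclins, CCND3 fell with GSK343 (85.5 to 46.0 FPKM, -0.92, adjusted p = 0.00327; 0.145 with the line fitted alone). With CPI-169 CCND3 went from 42.5 to 33.6 FPKM, and the groups did not overlap. That value of -0.33 missed the threshold in the shared fit (adjusted p = 0.0740). A limma fit to the KARPAS-422 libraries only brought it under the threshold (adjusted p = 0.00515). The CCND3 effects were not shown to differ between the treated lines (-0.59, adjusted p = 0.0593). CCND1 rose from 1.22 to 3.14 FPKM with GSK343 (0.90, adjusted p = 0.000163), while CCND2 was under 1 FPKM in all libraries and was not tested.

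Of the CDK inhibitors, 6 of 7 listed were tested: 1 rose and 3 fell with CPI-169, and 0 rose and 1 fell with GSK343, where 54.2% and 29.5% of all genes passed. CDKN2C (p18INK4c) rose from 13.2 ± 2.85 to 27.6 ± 3.64 FPKM with CPI-169 (1.03, adjusted p = 0.00039), did not pass in Pfeiffer (-0.56, adjusted p = 0.0621; passing without KARPAS-422 DMSO replicate 1 at 0.0266 and, at -0.80, without GSK343 replicate 1 at 0.0150), and differed between them (-1.58, adjusted p = 0.000897); in RL it was at 86.3 FPKM. CDKN2B (p15INK4b) fell with CPI-169 (2.43 to 1.16 FPKM, -0.67, adjusted p = 0.000747), and so did CDKN2A (-0.65, adjusted p = 0.0138) and CDKN2D (-0.37, adjusted p = 0.0358); the CDKN2A call was lost without KARPAS-422 DMSO replicate 2 or 3 or CPI-169 replicate 2 (adjusted p 0.0579 to 0.0583), and the CDKN2D call without those or CPI-169 replicate 1 or any Pfeiffer DMSO or RL library (0.0513 to 0.127). In all, the CDKN2D call with CPI-169 was lost in 11 of 19 settings. Among them were a pseudocount of 0.1, no filter on low values and median scaling (adjusted p = 0.134, 0.0797 and 0.137). The CDKN2A call was also lost with the line fitted alone (adjusted p = 0.0586). CDKN2D also fell with GSK343 (-0.77, adjusted p = 0.00552), from 1.95 and 2.09 FPKM to the low levels of 0.464 and 1.13. CDKN1A (p21) did not pass in either line in the shared fit (0.62 and -0.20). Its GSK343 libraries were at 21.1 and 3.18 FPKM against 9.97 and 10.1 with DMSO; the value was 1.01 (adjusted p = 2.27e-05) without GSK343 replicate 2 and -1.40 (adjusted p = 2.80e-06) without replicate 1. In KARPAS-422 it was at 7.53 to 8.18 FPKM with DMSO and 12.1 to 13.3 with CPI-169, and the 0.62 passed when that line was fitted alone (adjusted p = 0.000343). CDKN1B (p27) was at -0.19 and 0.27, passing in neither case. The first passed without KARPAS-422 DMSO replicate 1 or either GSK343 library (adjusted p 0.0272 to 0.0280), and the second without that DMSO library or GSK343 replicate 2 (0.0428 and 0.0150) and with median scaling or quantile normalization (0.00682 and 0.0252). The values differed by 0.46 (adjusted p = 0.0141; 0.0574 without Pfeiffer DMSO replicate 2), and CDKN1C was under 1 FPKM in all libraries.

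Textbook E2F target genes of DNA replication and S phase (37 genes) behaved differently in the treated lines. With GSK343 all 37 fell, where 17.5% of all genes tested were lower. The median log2 fold change was -1.55 against -0.033 for all genes, and in single libraries it was -1.43 and -1.76. With CPI-169 11 rose and 11 fell, where 54.2% of all genes passed (26.9% higher, 27.3% lower). The median was 0.047 against 0.0078 for all genes. The difference between the lines passed for 36 of the 37, all lower in Pfeiffer, where 42.6% of all genes passed (18.8% higher, 23.8% lower). POLA1 did not pass. CDT1, the replication licensing factor, rose from 6.02 to 17.1 FPKM with CPI-169 (1.36, adjusted p = 7.03e-06) and fell from 34.4 to 6.74 with GSK343 (-2.19). CDC25A, a CDK-activating phosphatase, fell in both lines (-0.96 and -1.40). CDC45, a helicase cofactor, had a value of -2.51 with GSK343, TK1 (thymidine kinase) -2.20 and UHRF1, which reads hemimethylated DNA, -1.68 (adjusted p = 6.96e-07, 9.80e-07 and 9.80e-07), against -0.50, -0.66 and 0.036 with CPI-169.

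Most of the G2/M genes (32) fell in both lines. With CPI-169 30 fell and 1 rose (CKAP2), with a median of -0.75 against 0.0078 for all genes tested. With GSK343 32 fell, with a median of -1.82 against -0.033. Of all genes, 27.3% were lower with CPI-169 and 17.5% with GSK343. The difference passed for 29 of 32, all lower in Pfeiffer, where 42.6% of all genes passed (18.8% higher, 23.8% lower). KIF11, the bipolar spindle motor, fell by 0.90 with CPI-169 and by 1.68 with GSK343; TPX2, a spindle assembly factor, by 0.80 and 1.71; KIF2C, a microtubule depolymerase, by 1.25 and 2.25; and PLK1, a mitotic kinase, by 0.71 and 1.90. In Pfeiffer fitted alone, neither list had a call after adjustment, and 37 of 37 and 31 of 32 genes had an unadjusted limma p under 0.05, as 4634 of 18731 genes did. At baseline 33 of the 37 G1/S genes were higher and 2 lower in Pfeiffer than in KARPAS-422, where 83% of all genes passed (43.2% higher, 39.8% lower). In RL 36 were higher than in KARPAS-422 with a median of 1.68, where 66.8% passed (33.6% higher, 33.2% lower). Against Pfeiffer 20 were higher and 3 lower in RL, where 74.3% passed (35.6% higher, 38.7% lower). Of the 32 G2/M genes, 12 were higher and 9 lower in Pfeiffer than in KARPAS-422 (median -0.021). In RL 28 of them were higher and 3 lower than in KARPAS-422, and 18 were higher and 1 lower than in Pfeiffer. Cells were not sorted by phase, so shares of cells in a phase and RNA per cell cannot be told apart.

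**Figure D4:**
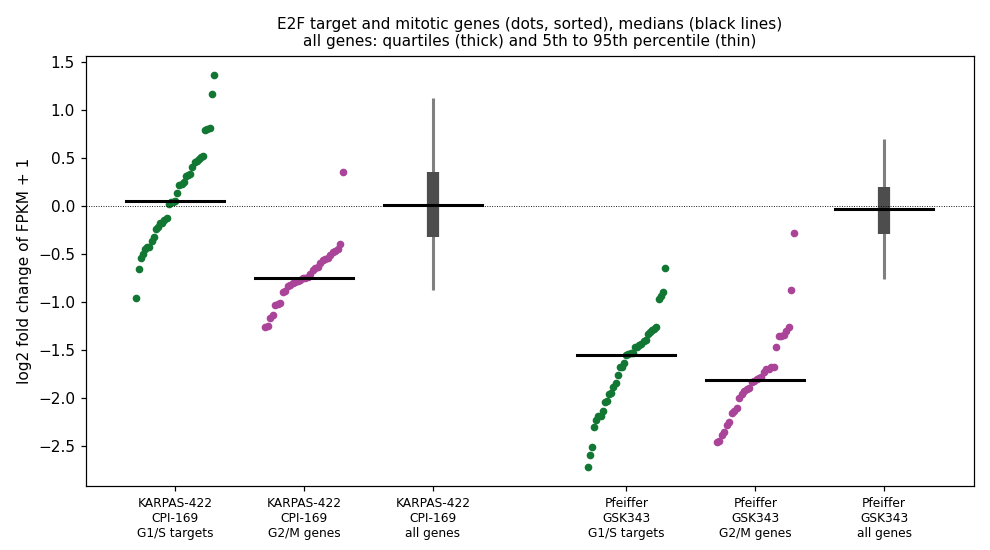
Log2 fold changes of FPKM + 1 for the 37 G1/S target genes and 32 G2/M genes (dots, sorted within each list) in both treated lines, with the median of each list (black line); grey bars give the quartiles (thick) and the 5th to 95th percentile (thin) of all genes tested. The G1/S median lies at 0.047 with CPI-169 and -1.55 with GSK343, and the G2/M medians at -0.75 and -1.82.

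As a description with no test, the genes whose log2(FPKM + 1) over the 12 libraries was most like each member (Pearson r, among 11013 genes with a mean of at least 5 FPKM) were found. The 12 points share lines and treatments, so r mostly reflects the 5 groups. For E2F1 they were AURKB (r = 0.989), PSMC3IP and FBXO5; for E2F8 CDC7 (0.983), ARHGEF39 and POLE2; and for RBL1 FAM72C (0.991), CKAP2L and FAM72A, where FAM72 genes are near-identical copies and uncertain. For E2F2 they were WDR5 (0.987), CLN6 and DLEU2; for E2F3 UNC119B (0.993), YTHDF1 and CLDN15; for E2F4 CDC73 (0.982), SERINC3 and YY1; and for E2F5 ST13P5 (0.983), GPSM2 and AC083873.4. RB1 was most like CHD1 (0.964), GTF2F1 and ARMC7, and RBL2 most like MGST3 (0.989), SMYD2 and UBA7.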

How the data were processed

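The authors deposited FPKM values for each gene in 12 libraries. The submitters' processing notes name TopHat 1.4.1, Cufflinks (no version) and hg19; annotation release, strand handling and library kit: not given in the sources used here. Because each library is scaled to its own total, abundant transcripts in 1 library lower the rest. Relative depth, read from the smallest values, spanned 0.647-1 for KARPAS-422, 1-1.33 for Pfeiffer and 0.773-1 for RL. Values of 1 FPKM or more in 2 or more libraries were required (18731 genes; 77 with missing values dropped), and these were transformed to log2(FPKM + 1), and fitted with limma 3.58.1 in R 4.3.3 (5 groups together, trend, Benjamini-Hochberg threshold 0.05; 7 residual and 3.45 prior degrees of freedom). The fit was run on simulated data with independent noise of the fitted spread, and the outcome is not given here. That setting cannot show how the fit handles the unlike GSK343 libraries or technical replicates. The text names all members, every gene of lists under 10 genes, and of the others the 3 smallest adjusted p per treatment (1 gene so chosen is not reported here); CKAP2 and POLA1, and levels in RL, were chosen after their values were seen. The members and lists were chosen with earlier results of these data known. Alternatives were the pseudocount, the filter, 2 scalings, separate fits, a replicate block and leaving out each library. Gene loci are hg19, from the table; promoter windows are RefSeq GRCh38.p14.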

Additional observations from a re-analysis of the deposited data

Results flagged for a closer look

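The difference between the GSK343 effect in Pfeiffer and the CPI-169 effect in KARPAS-422 passed limma's test of the difference itself for 8 of the 9 members and 23 of the 32 other named genes tested. Of all genes tested, 42.6% passed it. Part of the 32 other named genes were chosen for small p-values in the treatments themselves, so their count is a description. Line and compound cannot be told apart. Among the members it was -1.23 for E2F1, -1.91 for E2F2, 0.91 for E2F3, 0.59 for E2F4, -0.89 for E2F5, -2.15 for E2F8, 1.33 for RB1 and -0.52 for RBL2 (log2, Pfeiffer minus KARPAS-422; adjusted p 1.99e-06 to 0.00993). Among the partners and MuvB genes it was -1.02 for TFDP1, 0.50 for LIN52, 0.40 for LIN54, -1.09 for RBBP4, -1.17 for MYBL2 and -1.29 for FOXM1. For the G1 cyclins and kinases it was 0.86 for CCND1, 1.70 for CDK6, -0.88 for CCNE1, -0.69 for CCNE2 and -1.55 for CDK2, and for the CDK inhibitors 0.46 for CDKN1B, 1.03 for CDKN2B and -1.58 for CDKN2C. Among the targets it was -3.55 for CDT1, -0.45 for CDC25A, -1.54 for TK1, -2.01 for CDC45, -1.72 for UHRF1, -1.19 for PLK1, -0.78 for KIF11, -0.998 for KIF2C and -0.91 for TPX2. The LIN54 and CDC25A differences (adjusted p = 0.0455 and 0.0481) were lost in 14 and 13 of 18 alternative settings. That of CCND1 did not pass with a pseudocount of 0.1 (1.11, adjusted p = 0.0793). In KARPAS-422 the CCND1 means were only 0.210 FPKM with DMSO and 0.242 with CPI-169.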

How the results depend on the processing

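Of 54 member results, 39 kept their direction and side of the threshold under every alternative; of 972 alternative values 929 did, 27 lost a call, 14 gained one and 2 turned sign, both for values that had not passed (RBL1, RL against KARPAS-422, -0.039 without KARPAS-422 DMSO replicate 3, range without single libraries -0.039 to 0.078; E2F3 with GSK343, -0.042 without GSK343 replicate 2, range -0.042 to 0.51). The CPI-169 count of members was 9 or 10 in all. With Pfeiffer fitted alone, 0 members, 0 G1/S genes and 0 G2/M genes passed; that fit has 4 libraries. Leaving out single libraries gave 4 to 8 members with GSK343. The number of genes called with GSK343 was 5535, and 3003, 3537 and 8681 without Pfeiffer DMSO replicate 1, DMSO replicate 2 and GSK343 replicate 1.

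Same-numbered libraries did not deviate together in KARPAS-422 (correlations -0.152, -0.252 and 0.156). In Pfeiffer each group has 2 libraries, so both same-numbered pairs must give the same correlation, which was 0.14. The numbers are therefore not shown to pair the samples. With the replicate block 9 members passed with CPI-169, 4 with GSK343, and 3541 genes in all with GSK343; the E2F5 GSK343 call (adjusted p = 0.100) and the E2F8 baseline call of Pfeiffer against KARPAS-422 (adjusted p = 0.0570) were lost. Of the other named genes, the block lost the CDK4 calls (adjusted p = 0.135 with CPI-169 and 0.0615 with GSK343), the CCNE1 calls (0.0561 and 0.0506), the RBBP4 call with GSK343 (0.134) and the differences of LIN52 (0.0537), LIN54 (0.109), CDKN1B (0.0537) and CDC25A (0.110), and changed no other of their calls. Median scaling shifted the median of all genes by 0.107 with GSK343, 0.175 for Pfeiffer against KARPAS-422 and -0.154 for RL against Pfeiffer, and quantile normalization by 0.0334, -0.158 and 0.151. The share of GSK343 calls that were higher was 40.7% as deposited, 64.6% with median scaling and 51.0% with quantile normalization. E2F2 in Pfeiffer against KARPAS-422 passed with median scaling (0.40, adjusted p = 0.00695) or without Pfeiffer DMSO replicate 1, and RBL2 there lost its call without that library.

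For the 32 named list genes these settings were added after seeing the data: 1628 of 1786 values were on the same side, 99 lost a call, 44 gained one and 15 turned sign. MYBL2 with CPI-169 was 0.082 with median scaling and 0.094 with quantile normalization, which also gave -0.11 for CCND1 and -0.065 for UHRF1. Without single libraries the values with CPI-169 ranged from -0.089 to 0.021 for MYBL2 and from -0.027 to 0.11 for CCND1, and those with GSK343 from -0.074 to 0.25 for CDKN2A, -0.091 to 0.33 for TFDP2, -0.38 to 0.061 for LIN37 and -1.40 to 1.01 for CDKN1A. The difference ranged from -0.13 to 0.32 for LIN37 and from -2.02 to 0.38 for CDKN1A. The cause was not tested.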
